A study of Homo sapiens with 6 samples.

Results

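Hypoxia targets outside glycolysis were read as 10 genes in RNA-seq counts of H1299 cells: VEGFA, ADM, ANKRD37, NDRG1, BNIP3, BNIP3L, EGLN1, P4HA1, ERO1A and BHLHE40. The rule lists them by name and uses no measured value, although it was drawn up with earlier results of these data known. All 10 were among the 19201 entries of the count table and among the 19101 entries tested. H1299 is an established line derived from a human lung carcinoma of the non-small cell kind. The 3 control libraries came from wild-type H1299 cells and the 3 others from H1299 cells in which lncBCAS1-4_1, a long non-coding RNA, was overexpressed. Neither a vector for the controls nor an oxygen level is named in the labels, and no low-oxygen treatment is. The effect of the RNA and that of the overexpression procedure cannot be told apart, and no entry named for lncBCAS1-4_1 was analysed here.

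In cells with enough oxygen, prolyl hydroxylases of the EGLN family mark the alpha subunits of hypoxia-inducible factor (HIF) for degradation by the von Hippel-Lindau ubiquitin ligase. When oxygen falls, the alpha subunits HIF1A and EPAS1 accumulate as proteins, pair with ARNT and bind hypoxia response elements near their targets. The 10 genes are known targets that act outside glycolysis, in blood vessel growth and tone, removal of mitochondria, matrix and secretory protein folding, transcriptional repression and feedback on HIF itself. A level of mRNA does not show how much HIF protein a cell holds.

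Total counts were 84531039 to 92780032 per library. Nothing in the labels ties the replicates to separate cultures. The p-values therefore cover the spread between these libraries only, and that spread may be technical. The epithelial keratins KRT7, KRT8, KRT18 and KRT19 stood at 2.79, 368, 956 and 0.184 CPM (read counts scaled for library depth) in the controls. In the overexpressing cells they stood at 5.09, 446, 1301 and 0.170 CPM, and EPCAM and CDH1 were not analysed here. At an adjusted p under 0.05, KRT7, KRT8 and KRT18 were higher as fitted, and KRT7 alone after the GC and length correction given below. Of 6 lung lineage markers only NKX2-1 was tested, at 0.674 and 0.431 CPM in the 2 groups, and it did not pass. Of markers of other cells, 3 of 6 leukocyte, 3 of 6 endothelial and 2 of 6 fibroblast genes were tested. Their summed levels in the controls and in the overexpressing cells were 72.4 to 76.9 and 82.2 to 91.6 CPM (nearly all of it CD68), 0.479 to 0.845 and 0.587 to 1.13 CPM, and 1.43 to 2.22 and 1.44 to 2.47 CPM. Their defining members PTPRC, CDH5 and COL1A2 were not analysed here, and the part of these markers in the results was not tested. In bulk RNA, fewer cells that express a gene and less of its RNA per cell cannot be told apart.

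The hypoxia targets did not move as a block. At an adjusted p under 0.05 (edgeR quasi-likelihood test, Benjamini-Hochberg over all entries tested), 2 of 10 were higher in the overexpressing cells, BHLHE40 and VEGFA, and 3 were lower, BNIP3, ERO1A and BNIP3L. The other 5 did not pass. Of all 19101 entries tested, 38.0% passed in either direction, 18.3% as higher and 19.7% as lower, so 5 of 10 is a share near the background. The median log2 fold change was 0.0084 over the 10 genes and -0.0041 over all entries. None of the 10 met the study's own criterion of more than 2-fold at an unadjusted p under 0.05, which 2.95% of entries met. At an unadjusted p under 0.05 by edgeR 7 of the 10 differed (the 5 above, ANKRD37 and EGLN1). The share of all entries at that threshold was not counted here. It cannot be below 38.0%, and no excess is read from 7 of 10. By adjusted p, DESeq2 and limma-voom each called the same 5 as edgeR.

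**Figure D1:**
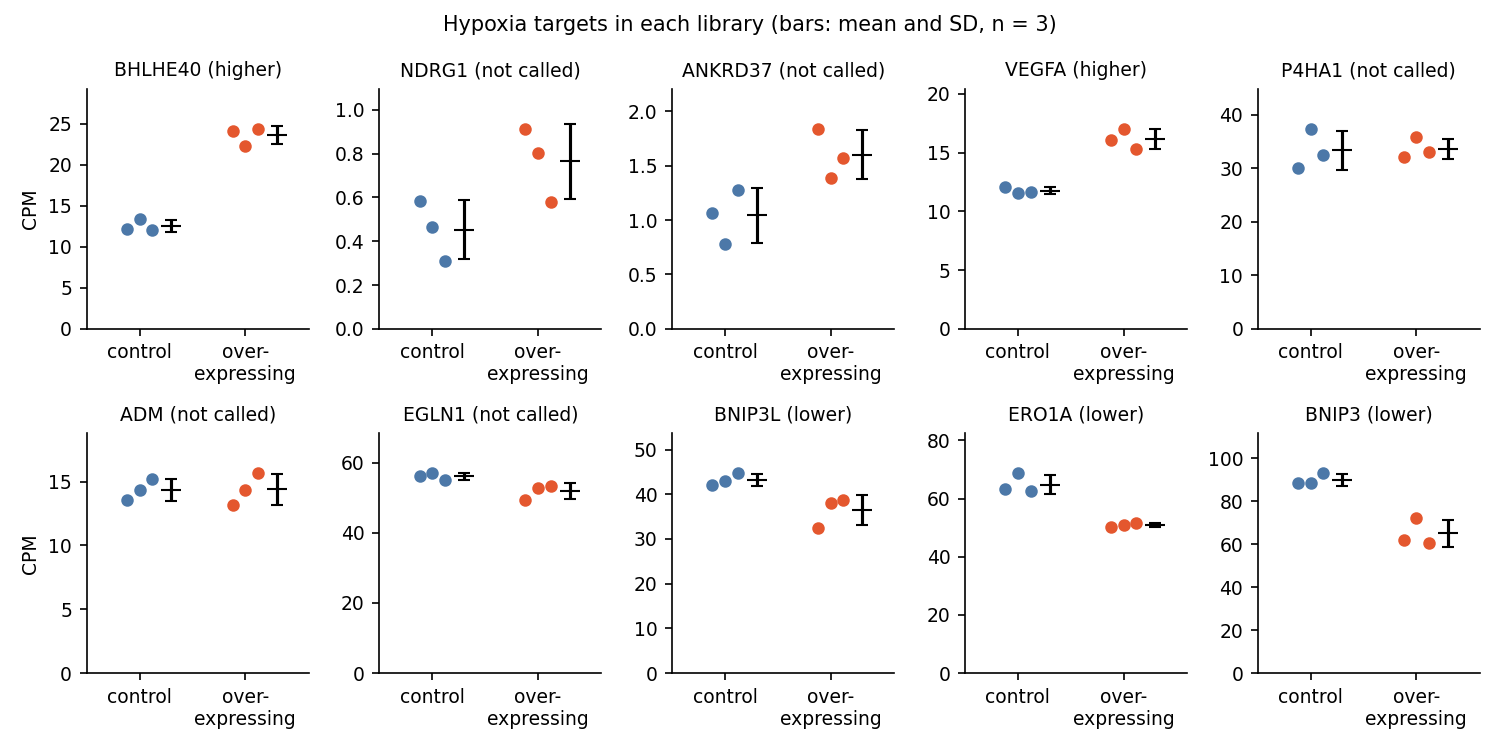
Level of each of the 10 hypoxia targets in every library, in CPM on axes that start at 0, with controls in blue and overexpressing libraries in orange, and the mean and SD (n = 3) as black bars. Panels run from the largest log2 fold change (BHLHE40, 0.91) to the smallest (BNIP3, -0.47). The groups do not overlap in 7 of the 10 panels, against 50.7% of all entries tested.

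A trend over all genes touches these values. Fold changes followed the GC content of transcripts: in 4 equal bins of entries by GC content, the median log2 fold change was -0.35 in the lowest bin (23.1% to 42.3% GC) and 0.26 in the highest (56.5% to 83.9% GC). The 5 hypoxia targets of lower GC content, BNIP3L, ERO1A, P4HA1, BNIP3 and EGLN1 (37.4% to 46.4%), had log2 fold changes from -0.47 to 0.014. The 5 of higher GC content, ANKRD37, BHLHE40, VEGFA, NDRG1 and ADM (47.1% to 55.4%), had log2 fold changes from 0.0031 to 0.91. The fit was therefore repeated with offsets that remove, library by library, the trend with GC content and length, and this corrected value is given with each gene. After it the same 2 genes were higher and 1, BNIP3, was lower, against 22.7% of all entries in either direction, 11.4% as higher and 11.3% as lower. The corrected ranges were -0.33 to 0.27 in the lower-GC genes and -0.26 to 0.85 in the others. GC content and length were corrected together, and the trend with length is not shown here. A shift under the correction therefore cannot be given to either of them alone. The part of these trends in the results was not tested.

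**Figure D2:**
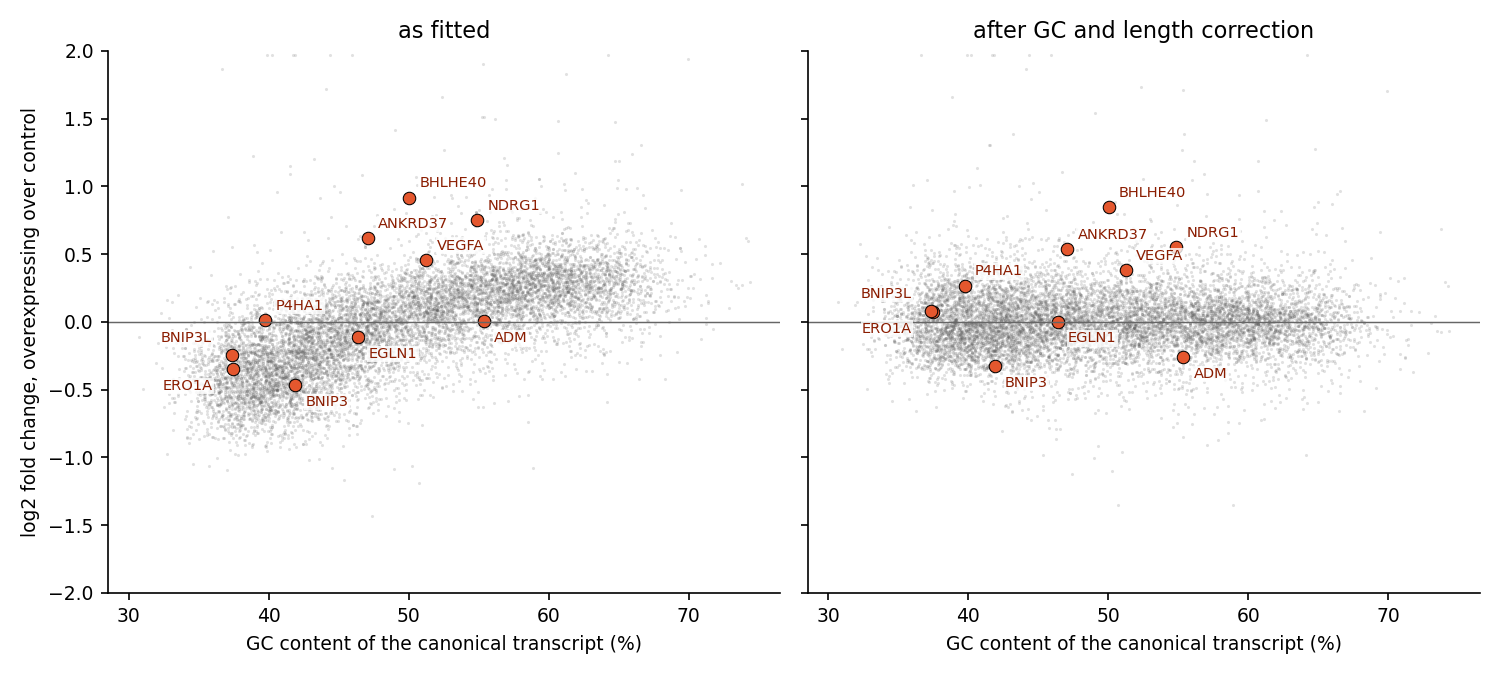
Log2 fold change (overexpressing over control) against the GC content of the canonical transcript in percent, as fitted on the left and after the GC and length correction on the right. Grey points are the 10092 genes with a mean log2 CPM above 3 (7 beyond the axis on the left and 8 on the right are drawn at its edge) and labelled orange points are the 10 hypoxia targets, of which ERO1A and BNIP3L lie within the sloping cloud on the left and at 0.074 and 0.083 on the right.

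BHLHE40, a basic helix-loop-helix repressor that also feeds back on the circadian clock, differed most. Its levels were 12.2, 13.4 and 12.03 CPM in controls 1 to 3 and 24.1, 22.3 and 24.4 CPM in overexpressing libraries 1 to 3. Every overexpressing library lay above every control. BHLHE40 rose 1.89-fold (log2 fold change 0.91, SE 0.08, adjusted p = 0.00016), from 12.5 ± 0.7 to 23.6 ± 1.1 CPM (SD, n = 3 each). The rise remained after the GC and length correction (log2 fold change 0.85, adjusted p = 0.00018) and was between 0.89 and 0.96 on the log2 scale with any 1 library left out. The gene (ENSG00000134107) spans 4979437 to 4985323 of chromosome 3 (plus strand, GRCh38), and its canonical transcript has 5 exons.

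VEGFA, the secreted growth factor that draws in new blood vessels, also rose. The controls stood at 12.1, 11.6 and 11.6 CPM and the overexpressing libraries at 16.1, 17.0 and 15.3 CPM, again with no overlap. This was a 1.37-fold rise (log2 fold change 0.46, SE 0.09, adjusted p = 0.0030) from 11.8 ± 0.3 to 16.1 ± 0.8 CPM (SD, n = 3 each). The corrected log2 fold change was 0.38 (adjusted p = 0.0074), and the call held with any 1 library left out, as fitted and corrected. VEGFA (ENSG00000112715) spans 43770184 to 43786487 of chromosome 6 (plus strand) with 8 exons.

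The other secreted product, ADM, gives the vasodilator peptide adrenomedullin. It stood at 13.5, 14.3 and 15.2 CPM in the controls and at 13.2, 14.3 and 15.7 CPM in the overexpressing libraries. The ranges lay almost on top of each other, with a log2 fold change of 0.0031 (SE 0.10, adjusted p = 0.98). After the correction the value was -0.26 (SE 0.10) and did not pass (adjusted p = 0.092). It passed as lower only with the correction and without overexpressing library 3 (-0.36, adjusted p = 0.033). ADM (ENSG00000148926) spans 10305073 to 10307397 of chromosome 11 (plus strand), with 4 exons.

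BNIP3 and BNIP3L encode related outer mitochondrial membrane proteins that mark mitochondria for removal by autophagy. BNIP3 stood at 88.5, 88.3 and 93.1 CPM in the controls and at 62.2, 72.3 and 60.7 CPM in the overexpressing libraries, all 3 of which lay below every control. It fell by 0.47 on the log2 scale (SE 0.07, adjusted p = 0.00081), from 89.9 ± 2.7 to 65.03 ± 6.32 CPM (SD, n = 3 each). Corrected, BNIP3 was lower by a log2 fold change of -0.33 (SE 0.08, adjusted p = 0.021). That corrected call was lost without control 3 (-0.28, adjusted p = 0.070), without overexpressing library 1 (-0.29, adjusted p = 0.074) and without overexpressing library 3 (-0.26, adjusted p = 0.061).

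BNIP3L was at 42.0, 43.0 and 44.7 CPM in the controls and at 32.5, 38.1 and 38.8 CPM in the overexpressing libraries. The groups did not overlap, and library 1 of the overexpressing cells was the lowest. It fell by 0.24 on the log2 scale (SE 0.07, adjusted p = 0.027). The call was lost without any 1 of the 3 controls (adjusted p from 0.052 to 0.071) and without overexpressing library 1 (-0.17, adjusted p = 0.070). After the correction the sign turned and the value did not pass (0.083, adjusted p = 0.57). BNIP3 (ENSG00000176171) spans 131967684 to 131981967 of chromosome 10 (minus strand) and BNIP3L (ENSG00000104765) 26383054 to 26505636 of chromosome 8 (plus strand), with 6 exons each.

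ERO1A and P4HA1 act in the endoplasmic reticulum. ERO1A, the thiol oxidase that recharges protein disulfide isomerase, was at 63.3, 68.7 and 62.5 CPM in the controls and at 50.2, 51.0 and 51.6 CPM in the overexpressing libraries. The overexpressing libraries lay close together and below every control. ERO1A fell by 0.35 on the log2 scale (SE 0.05, adjusted p = 0.00082), from 64.8 ± 3.4 to 50.9 ± 0.7 CPM (SD, n = 3 each). With the correction the difference was 0.074 (SE 0.05, adjusted p = 0.38), the opposite sign, and no corrected fit with 1 library left out called it. ERO1A (ENSG00000197930) spans 52639915 to 52695900 of chromosome 14 (minus strand), with 16 exons and a transcript GC content of 37.5%.

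P4HA1 encodes a catalytic subunit of collagen prolyl 4-hydroxylase, which hydroxylates procollagen. It was at 30.1, 37.4 and 32.5 CPM in the controls and at 32.1, 35.8 and 33.1 CPM in the overexpressing libraries. The overexpressing range lay inside the control range, with a log2 fold change of 0.014 (SE 0.09, adjusted p = 0.92). The corrected value was 0.27 (SE 0.09, adjusted p = 0.064). P4HA1 (ENSG00000122884) spans 73007217 to 73096974 of chromosome 10 (minus strand), with 15 exons.

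EGLN1 encodes the main oxygen-sensing prolyl hydroxylase of HIF, and is itself a HIF target. The controls were at 56.1, 56.9 and 55.0 CPM and the overexpressing libraries at 49.2, 52.7 and 53.4 CPM. The groups did not overlap, but the gap between them was small beside the spread of the overexpressing libraries. The log2 fold change of -0.11 (SE 0.05) did not pass (adjusted p = 0.098), and after the correction it was 0.0015 (adjusted p = 0.98). EGLN1 (ENSG00000135766) spans 231363751 to 231422287 of chromosome 1 (minus strand), with 5 exons.

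NDRG1, a cytoplasmic protein induced by stress and differentiation, and the ankyrin repeat gene ANKRD37 were both rare. NDRG1 had 52, 44 and 28 counts in the controls and 77, 67 and 52 in the overexpressing libraries. That is 0.583, 0.465 and 0.312 against 0.912, 0.803 and 0.578 CPM, with the lowest overexpressing library just under the highest control. Its log2 fold change of 0.75 had an SE of 0.34 (adjusted p = 0.11), and the corrected value was 0.55 (adjusted p = 0.29). NDRG1 (ENSG00000104419) spans 133237175 to 133302022 of chromosome 8 (minus strand), with 16 exons.

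ANKRD37 had 95, 74 and 115 counts in the controls and 155, 116 and 141 in the overexpressing libraries, or 1.07, 0.782 and 1.28 against 1.84, 1.39 and 1.57 CPM. No overexpressing library was as low as a control in CPM. The log2 fold change of 0.62 (SE 0.24) did not pass (adjusted p = 0.069), and the corrected value was 0.53 (adjusted p = 0.14). It passed only without control 3 (0.79, adjusted p = 0.040). ANKRD37 (ENSG00000186352) spans 185396021 to 185400628 of chromosome 4 (plus strand), with 5 exons. In all, the groups did not overlap in CPM for 7 of the 10 hypoxia targets, against 50.7% of all entries tested. The overexpressing libraries lay above in 3, against 24.7% of entries, and below in 4, against 26.0%. After the correction the groups did not overlap for 6 of the 10, against 40.1% of entries, with 4 above (19.3% of entries) and 2 below (20.7%). BNIP3L, EGLN1 and ERO1A then overlapped, while P4HA1 no longer overlapped and lay above, and ADM no longer overlapped and lay below.

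**Figure D3:**
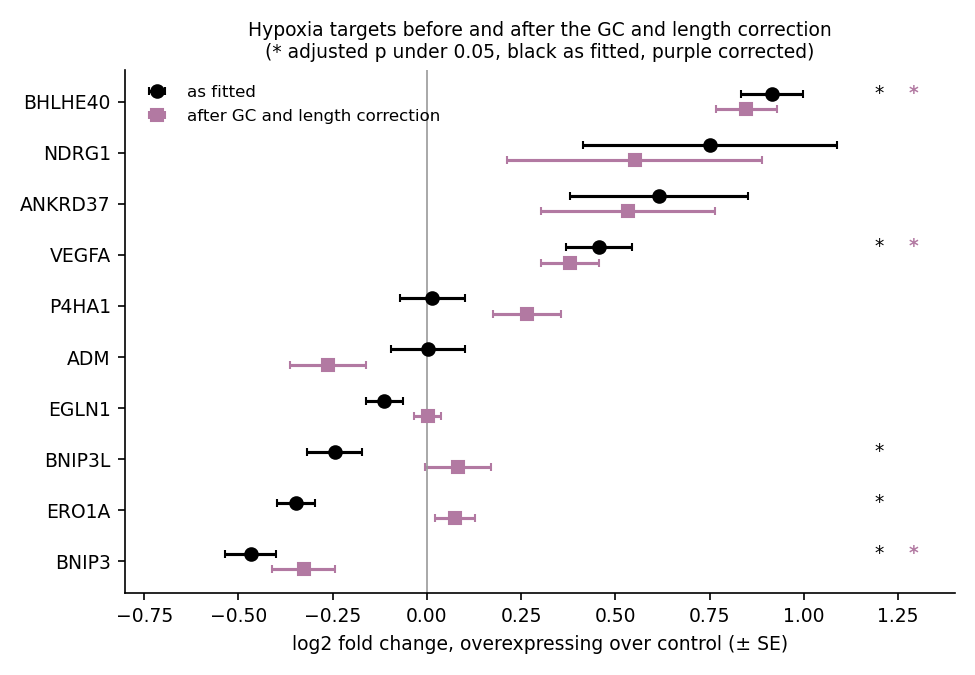
Log2 fold change of each hypoxia target, overexpressing over control, with its SE, as fitted (black circles) and after the GC and length correction (purple squares). Asterisks mark an adjusted p under 0.05 in the fit of that colour: 5 genes pass as fitted and 3, BHLHE40, VEGFA and BNIP3, after the correction.

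Some of these counts share exon sequence with other genes in GENCODE 44, and the strandedness of the libraries is not given in the sources used here, so reads from opposite strands cannot be told apart. The most shared sequence lay on the same strand, where strand would not separate the reads: EGLN1 shares 3004 exon bases with a gene known only by its Ensembl ID, and NDRG1 shares 753 with another. On opposite strands, ANKRD37 shares 909 exon bases with UFSP2. UFSP2, a protease for the ubiquitin-like modifier UFM1, was at 15.8 and 15.6 CPM in the 2 groups (log2 fold change -0.02, adjusted p = 0.89). BNIP3L shares 330 bases with PNMA2 (log2 fold change -0.01, adjusted p = 0.93). ERO1A, VEGFA and P4HA1 share 581, 188 and 47 bases with genes known only by Ensembl ID, and BHLHE40 shares 451 bases with BHLHE40-AS1. Apart from UFSP2 and PNMA2, these overlapping genes were not analysed here. BNIP3 has 44 genes named as its pseudogenes in GENCODE, of which 2, BNIP3P11 and BNIP3P17, were in the table at 0.590 and 0.182 CPM in the controls. Reads of BNIP3 could have been split with such copies.

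Per kilobase of canonical transcript, BNIP3 was the most abundant of the 10 hypoxia targets in both groups, at 58.3 ± 1.8 CPM per kilobase in the controls and 42.2 ± 4.1 in the overexpressing cells (SD, n = 3 each). EGLN1, ERO1A, BNIP3L and P4HA1 followed in the controls at 12.9, 12.6, 12.5 and 12.2 CPM per kilobase, and each overlapped with the next in that order. ADM came next at 9.63, then BHLHE40 at 3.97, VEGFA at 3.26, ANKRD37 at 1.33 and NDRG1 at 0.150 CPM per kilobase, with no overlap between neighbours. In the overexpressing cells the order after BNIP3 was P4HA1 (12.3), EGLN1 (11.9), BNIP3L (10.6), ERO1A (9.91), ADM (9.65), BHLHE40 (7.49), VEGFA (4.47), ANKRD37 (2.04) and NDRG1 (0.253). There P4HA1 overlapped with EGLN1, BNIP3L with ERO1A and ERO1A with ADM.

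The core letters of the hypoxia response element were looked for in RefSeq promoter windows (GRCh38), from 250 bases before to 50 bases after each start. Windows were matched for 7 of the 10 genes: ADM, ANKRD37, BNIP3, EGLN1, P4HA1, ERO1A and BHLHE40. The letters searched were ACGTG and GCGTG on both strands, so that CACGTG, the E-box form to which BHLHE40 protein is known to bind, counts as 2 overlapping matches. All 7 windows held at least 1 match, against 48.4% of 35116 windows and 66.7% of the 11657 windows with at least 65% GC. BNIP3 had 6 matches, BHLHE40 had 4, ANKRD37 and ERO1A had 3 each, and ADM, EGLN1 and P4HA1 had 1 each. CACGTG stood in 3 of the 7 windows, those of BNIP3, BHLHE40 and ANKRD37, against 7.26% of all windows. The 7 windows had 65% to 80.7% GC, and the share with CACGTG in windows that rich in GC was not counted here. The windows of ANKRD37 and ERO1A lie wholly within the spans given above for these genes. A match of letters is a description and not a site that was seen to be bound. The stretches before the start of the gene that rose most, the gene that fell most and the oxygen sensor that did not pass are shown 5′ to 3′ on the strand of the gene, with each match, on either strand, in capitals. They lie at chr3:4979187-4979436 (plus strand) for BHLHE40, at chr10:131981968-131982173 (minus strand) for BNIP3 and at chr1:231422288-231422537 (minus strand) for EGLN1.
BHLHE40: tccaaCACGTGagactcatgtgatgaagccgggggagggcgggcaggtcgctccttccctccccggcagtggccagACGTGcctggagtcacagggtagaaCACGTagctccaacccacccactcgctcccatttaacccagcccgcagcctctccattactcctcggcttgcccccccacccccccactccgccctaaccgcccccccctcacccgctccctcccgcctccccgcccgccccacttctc
BNIP3: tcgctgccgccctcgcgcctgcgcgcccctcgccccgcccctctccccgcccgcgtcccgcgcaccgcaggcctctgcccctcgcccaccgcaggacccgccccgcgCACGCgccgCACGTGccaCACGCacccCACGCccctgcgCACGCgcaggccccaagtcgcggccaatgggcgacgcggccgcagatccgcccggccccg
EGLN1: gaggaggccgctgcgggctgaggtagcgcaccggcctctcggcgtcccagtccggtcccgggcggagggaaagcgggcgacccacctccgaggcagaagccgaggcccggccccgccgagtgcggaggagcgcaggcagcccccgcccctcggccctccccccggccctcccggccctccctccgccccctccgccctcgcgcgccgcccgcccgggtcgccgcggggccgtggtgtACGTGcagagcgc

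Counted by first base from the RefSeq start, the 4 matches of BHLHE40 lie from -245 to -149, with CACGTG farthest out, and those of BNIP3 from -143 to -104. The single match of EGLN1 lies at -13. All 7 matched windows held at least 1 match. The presence of a match therefore cannot be set against the direction in which these genes moved.

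The genes that run the HIF pathway were read beside its targets. Of 15 tested HIF subunits and regulators, a list that includes EGLN1, 3 were higher and 4 lower, against 18.3% and 19.7% of all entries. The median log2 fold change of the 15 was -0.03. HIF3A, ARNT2 and P4HTM were not analysed here. HIF1A, the widely expressed alpha subunit, was at 129, 131 and 119 CPM in the controls and at 83.8, 75.8 and 91.2 CPM in the overexpressing libraries, without overlap. It fell by 0.59 on the log2 scale (SE 0.07, adjusted p = 0.00036), and by 0.27 after the correction (adjusted p = 0.00093).

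EPAS1, the second alpha subunit (HIF-2 alpha), went the other way from a low level. It stood at 2.11, 2.50 and 2.35 CPM in the controls and at 5.32, 6.11 and 6.71 CPM in the overexpressing libraries. The libraries of the 2 groups were far apart, a 2.60-fold rise (log2 fold change 1.38, SE 0.15, adjusted p = 0.00026) that was 1.35 on the log2 scale after the correction (adjusted p = 0.00029). CITED2, which competes with HIF for its co-activators, rose 1.34-fold (adjusted p = 0.0022) and passed after the correction (0.38, adjusted p = 0.0033).

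Of the ubiquitin ligase and co-activator genes, the adaptor ELOB rose 1.30-fold, the scaffold CUL2 fell by 0.52 on the log2 scale, and the acetyltransferases EP300 and CREBBP fell by 0.27 and 0.16. None of these 4 passed after the correction (0.029, -0.15, -0.11 and -0.12). CREBBP did not pass without control 1, control 2 or overexpressing library 1 (adjusted p from 0.056 to 0.072). The partner subunit ARNT (-0.07, adjusted p = 0.29), the ubiquitin ligase receptor VHL (-0.03, adjusted p = 0.68) and the asparaginyl hydroxylase HIF1AN (-0.01, adjusted p = 0.87) did not pass as fitted. HIF1AN was higher after the correction (0.29, adjusted p = 0.00065) and the prolyl hydroxylase EGLN2 was lower (-0.25, adjusted p = 0.0095). These genes were named after their values were seen. EGLN3, a prolyl hydroxylase whose gene is itself a HIF target, was low, at 0.506 ± 0.053 and 0.632 ± 0.129 CPM (SD, n = 3 each), and did not pass (log2 fold change 0.32, adjusted p = 0.46).

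A longer list of hypoxia targets outside glycolysis showed movement both ways. Of 44 tested, 14 were higher, 9 lower and 21 did not pass, against 18.3% of all entries as higher and 19.7% as lower. The median of the list was 0.08 on the log2 scale (CA9 and COX4I2 were not analysed here). After the correction 10 were higher and 4 lower, against 11.4% and 11.3% of all entries. Of these 10 and 4, 7 and 3 had been called in the same direction before. LOXL2, a lysyl oxidase that crosslinks collagen, rose 1.47-fold, with controls at 251 ± 12 CPM and overexpressing libraries at 369 ± 13 CPM (SD, n = 3 each). The haem oxygenase HMOX1 rose 1.46-fold and the transferrin receptor TFRC 1.58-fold. Corrected log2 fold changes of these 3 genes were 0.36, 0.24 and 1.01, and all passed.

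Among those that fell, the adenylate kinase AK4 fell by 0.49 on the log2 scale and the lysyl hydroxylase PLOD2 by 0.51, but their corrected values of -0.10 and -0.17 did not pass. The lactate exporter SLC16A3, named for its turn, was higher as fitted (log2 fold change 0.19) and lower after the correction (-0.12, adjusted p = 0.026).

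The calls among targets within glycolysis changed with the correction. Of 16 tested, 9 were higher and none lower as fitted, against 18.3% and 19.7% of all entries. The median of the 16 was 0.26 on the log2 scale, at a median transcript GC content of 54.1%. GAPDH and PFKP, at 0.35 and 0.29 as fitted, were at 0.054 and 0.03 after the correction and did not pass. Corrected, 3 were higher (SLC2A3, PGK1 and PGM1) and 1 was lower (PGAM1), against 11.4% and 11.3% of all entries. The median of the list was then 0.045. SLC2A3 and PGM1 had been higher as fitted too, while PGK1 (0.018) and PGAM1 (0.058) had not passed. By edgeR no gene of this list was lower as fitted, also at an unadjusted p under 0.05. HK2, LDHA, PKM and ENO1 were left out, because their symbols stood beside Ensembl IDs of other genes.

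**Figure D4:**
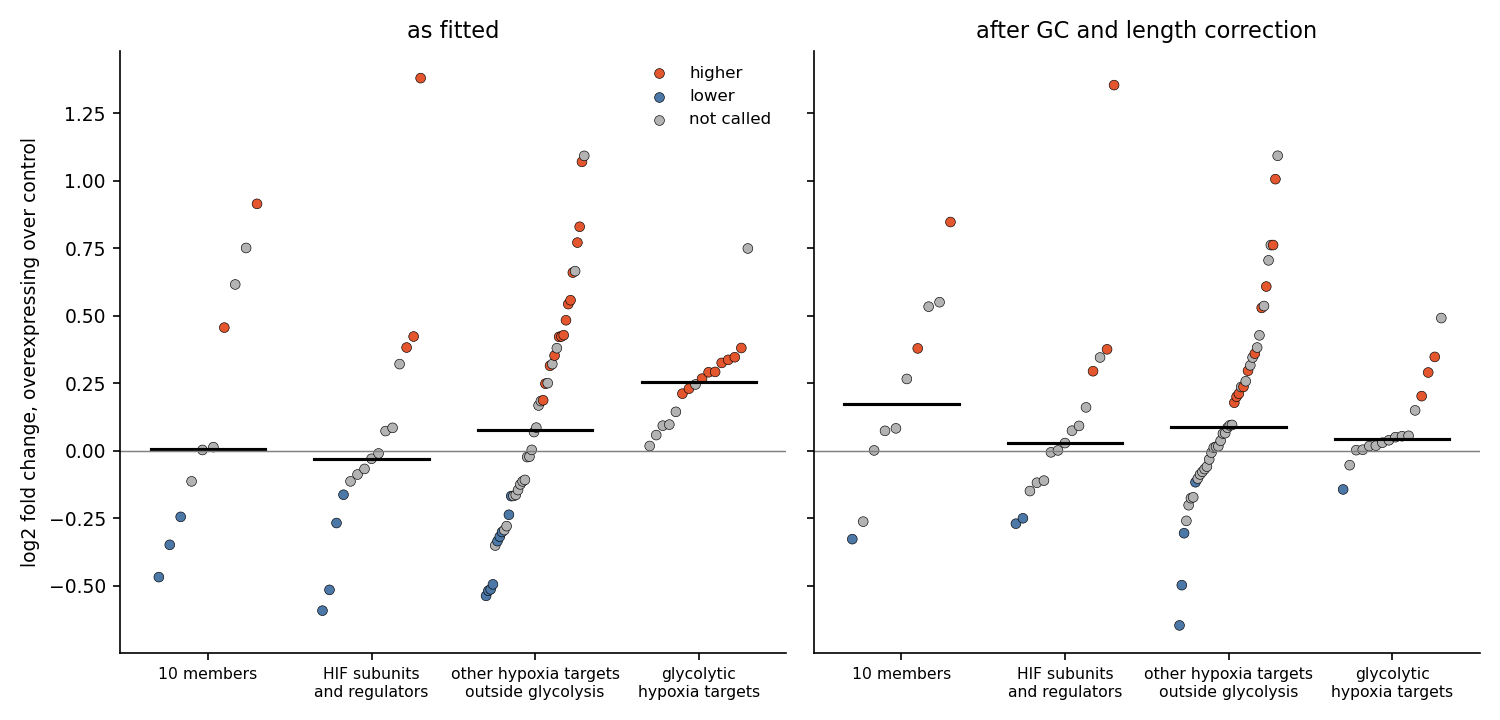
Log2 fold change of every tested gene in 4 lists, overexpressing over control, as fitted (left) and after the GC and length correction (right), each point a gene in order of its value and each black line the median of the list. Orange and blue points pass as higher and lower and grey ones do not: the 10 hypoxia targets have 2 orange and 3 blue points on the left and 2 and 1 on the right, and the top point of the HIF list is EPAS1 (1.38 and 1.35).

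Partners and paralogues of the 10 hypoxia targets gave 11 higher and 1 lower of 25 tested, against 18.3% and 19.7% of all entries. Their median transcript GC content was 54.3%. Their log2 fold changes had a median of 0.24. After the correction 5 were higher and 3 lower, against 11.4% and 11.3% of all entries, with a median of 0.085. Beside the mitophagy receptors, PINK1, the kinase that starts the other main route of mitochondrial removal, rose 1.45-fold (adjusted p = 0.00052) and passed after the correction (0.27). The disulfide isomerase PDIA4 rose 1.19-fold (0.11 after the correction, adjusted p = 0.030). FLT1, CALCRL, RAMP2 and RAMP3 were not analysed here, so the VEGF receptor FLT1 and the adrenomedullin receptor CALCRL have no value. The VEGF receptor KDR was at 0.937 ± 0.311 against 0.667 ± 0.165 CPM (SD, n = 3 each) and did not pass (log2 fold change -0.49, adjusted p = 0.28).

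Ratios of a gene to its paralogue within the same library do not depend on how libraries are scaled, apart from the small value added to each CPM. The log2 ratio of CPM + 0.1 was compared in 8 pairs by an exact two-sided permutation test. With 3 libraries against 3 that test cannot give a p below 0.10. The groups did not overlap in 6 of the 8 pairs, each at that smallest p (0.13 adjusted over the pairs), and in 5 after the correction. Of single entries, 50.7% did not overlap, and 40.1% after the correction. The share over other gene ratios was not counted here, so nothing particular to these pairs is read from 6 of 8. BHLHE40 and its paralogue BHLHE41 moved apart most. Their log2 ratio was -0.85, -0.73 and -0.91 in the controls and 0.37, 0.30 and 0.46 in the overexpressing libraries. The difference was 1.21 as measured and 1.15 after the correction, and BHLHE41 itself fell by 0.30 (log2; adjusted p = 0.0081).

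The log2 ratio of BNIP3 to BNIP3L was 1.07, 1.04 and 1.06 in the controls and 0.93, 0.92 and 0.64 in the overexpressing libraries. All 3 lay below every control, with a difference of -0.22, and of -0.41 after the correction. ADM and its relative ADM2, which acts on the same receptors, had a ratio that differed by -0.996 (-1.06 corrected) and a 2.09-fold rise of ADM2 from 1.81 ± 0.28 to 3.79 ± 1.05 CPM (SD, n = 3 each; adjusted p = 0.0051). P4HA1 against P4HA2, another catalytic subunit, differed by -0.34 (-0.27 corrected). P4HA2 rose 1.28-fold (adjusted p = 0.012), a call lost without control 1 or control 2 (adjusted p of 0.053 and 0.052). After the correction P4HA2 passed at a log2 fold change of 0.53 (adjusted p = 0.0032).

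EGLN1 against EGLN3 differed by -0.37 and NDRG1 against NDRG3 by 0.69, and in both pairs the groups overlapped after the correction. EGLN3 rested on 41 to 61 counts a library and NDRG1 on 28 to 77, so the 0.1 added to each CPM weighs on both ratios. VEGFA against VEGFB had overlapping groups as measured (0.11, exact permutation p = 0.30), and VEGFB rose 1.28-fold too. After the correction the difference was 0.36 without overlap, and VEGFB no longer passed (0.016). ERO1A against ERO1B overlapped under both (0.08 and 0.087), with ERO1B at 4.40, 4.40 and 4.34 CPM in the controls and at 2.37, 3.19 and 4.46 CPM in the overexpressing libraries. ERO1B did not pass with all libraries (adjusted p = 0.19) and passed as lower without overexpressing library 3 (-0.66, adjusted p = 0.020).

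**Figure D5:**
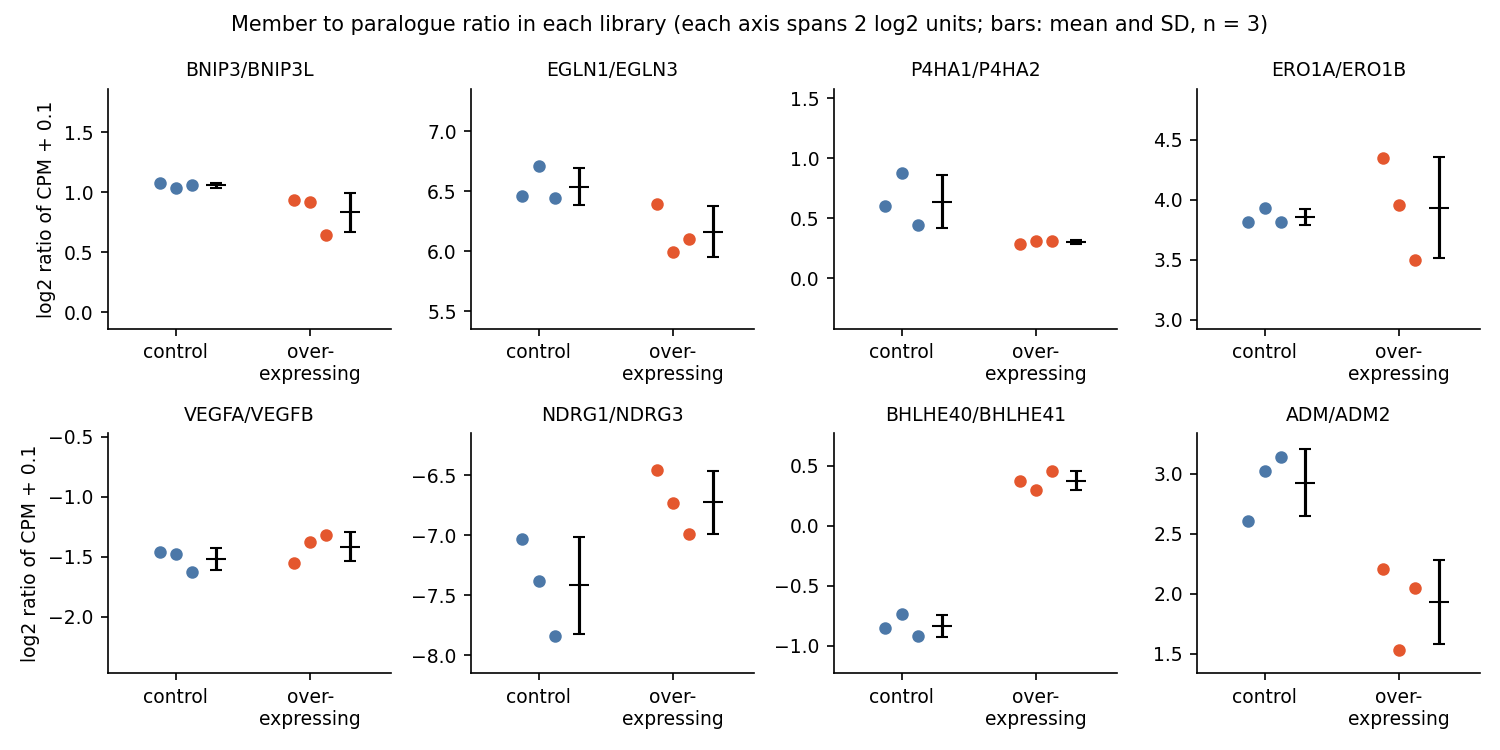
Log2 ratio of CPM + 0.1 of a hypoxia target to its paralogue in each library, controls in blue and overexpressing libraries in orange, with the mean and SD (n = 3) as black bars; every panel spans 2 log2 units. The groups do not overlap in 6 of the 8 panels, and the share over other gene ratios was not counted. BHLHE40 against BHLHE41 goes from -0.83 to 0.38 on average.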

How the data were processed

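RNA-seq was made from total RNA of 3 wild-type and 3 lncBCAS1-4_1-overexpressing H1299 samples. The authors deposited raw gene counts, not normalized. Reads were trimmed with fastp, aligned with HISAT2 to GRCh38 and assembled and measured with StringTie, per the labels' protocols. The sources used here do not give versions, strandedness or the way counts were taken.

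Counts were tested with edgeR 4.0.16 (R 4.3.3): TMM scaling, filterByExpr (min.count 10, min.total.count 15), a quasi-likelihood F-test on the group alone and Benjamini-Hochberg adjustment over the 19101 of 19201 entries that passed the filter. Passing meant an adjusted p under 0.05. CPM were taken with TMM factors, and SE from the fold change and F. At totals of 84531039 to 92780032 counts, NDRG1 rested on 28 to 77 counts per library. GENCODE 44 canonical transcripts gave length and GC content for 99.3% of tested entries. For the correction, how far a library's log2 CPM lay from the gene's mean was fitted with natural splines (5 degrees of freedom each) of GC content and log2 length, over genes above a mean log2 CPM of 2, and the fitted trend was entered as an offset. The fit and the correction were also run on simulated data, with no GC trend or with a linear one shared by the overexpressing libraries. Those data held no trend with length, so they do not test that part of the correction. Their outcome is not reported here.

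The 10 genes were listed by name, without a threshold on any value, but they, the lists and the correction were chosen with earlier results of these data known. Named were all 10 genes, HIF1A, EPAS1, EGLN3, the paralogues, and the called members of smallest p in each direction: up to 3 of the HIF and of the longer hypoxia list and up to 2 of the glycolytic and partner lists. Others were named after their values were seen. For 1 gene within this rule no result is reported here. The 8 entries whose symbol and Ensembl ID disagree entered no list. Within groups, libraries differed by more than sampling (chi-square of 11.6 to 22.7 for each degree of freedom). Each was counted as 1 replicate, although such a spread does not show that the libraries came from separate cultures. Alternatives were DESeq2 1.42.0, limma-voom (limma 3.58.1), other scalings and filters, a replicate block and leaving out libraries.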

Additional observations from a re-analysis of the deposited data

How the results depend on the processing

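Direction and side of the threshold held for BHLHE40 and VEGFA in every fit run, except under the 2-fold rule. With the GC and length correction 2172 entries were higher and 2165 lower, and 1 of the 10 genes was lower; with the correction and a replicate block together these were 1709, 1637 and 1. With the correction and 1 library left out, an alternative chosen after seeing the data, entries higher ranged from 1560 to 1966, entries lower from 1378 to 1821, and the 10 genes had 0 to 1 lower. Without the correction, leaving out 1 library gave 2591 to 3446 higher and 2869 to 3740 lower entries, with 2 to 3 of the 10 genes lower. By the study's rule of more than 2-fold at an unadjusted p under 0.05 (2.95% of entries), 338 were higher and 226 lower, with 0 higher and 0 lower of the 10 genes; the size criterion sets this. BNIP3L turned to 0.083 with the correction, 0.081 with a replicate block added and 0.00094 to 0.16 with 1 library left out, against -0.29 to -0.17 uncorrected. ERO1A turned to 0.074, 0.073 and 0.025 to 0.11 in the same fits, against -0.37 to -0.30 uncorrected. ADM, at 0.0031 as fitted, ranged from -0.36 to -0.18 with the correction and 1 library left out, passing once, and from -0.063 to 0.062 uncorrected. Why the sign turned was not tested. EGLN1 passed as lower with library size alone as scaling (-0.16, adjusted p = 0.044), and P4HA1 passed as higher with the correction and replicate block together (0.27, adjusted p = 0.032).

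The replicate numbers did not pair the libraries: deviations of same-numbered libraries from their group means correlated at -0.08, -0.26 and -0.44 over 10114 genes, and no library correlated best with its own number. The replicate block gave 2681 higher and 3014 lower entries and the same 5 calls among the 10 genes, while CREBBP did not pass with it (-0.16, adjusted p = 0.072). At 28 to 77 counts a library for NDRG1 and 74 to 155 for ANKRD37, the SE of 0.34 and 0.24 limits what could be detected.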
